A study of Mus musculus with 10 samples.

Results

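Integrins are the cell surface receptors that hold cells to the extracellular matrix, and laminins are the matrix proteins of the basement membrane that many of them bind. Their genes were followed in the infundibulum of the mouse oviduct, the funnel-shaped end next to the ovary, after treatment of the animals with recombinant murine prolactin (rmPRL). The genes were taken by name: every gene whose symbol is Itga or Itgb followed by a chain designation, or Lama, Lamb or Lamc followed by a chain number. This gave 37 of the 54256 genes in the deposited table, namely 26 integrin chains (18 α and 8 β) and 11 laminin chains. Of these, 33 reached at least 1 TPM (a transcript's level scaled to a fixed total per library) in at least 5 of the 10 libraries and were tested. The 4 that did not were Itga4, Itga11, Itgad and Lamb3.

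The rmPRL group and the saline group each had 5 libraries of RNA from C57BL/6 mice aged 8 to 10 weeks, treated for 7 days with rmPRL or with saline. Each library pooled the 4 infundibula of 2 animals, so the spread reported here is between pools and not between single mice. The labels name no transgene or mutation in the rmPRL group and call the saline animals WT, for wild type. The labels put the estrous stage at proestrus for 9 libraries and at diestrus for rmPRL library 2.

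An integrin receptor is a pair of an α and a β chain, and the pairing sets its ligand. Some pairs bind laminin, others bind collagen, others bind the short arginine-glycine-aspartate (RGD) sequence of fibronectin and vitronectin, and a group found on white blood cells binds counter-receptors on other cells. A laminin is a trimer of an α, a β and a γ chain wound together inside the cell before secretion, and the α chain carries the main integrin binding sites. In a mucosa such as the oviduct lining, laminins lie under the epithelium, around smooth muscle and around blood vessels, each place with its own set of chains.

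The deposited values are TPM, which are scaled per transcript length, so that levels of different genes can be set side by side. They carry no read depth, so the counting error behind a single value is unknown. Between 15975 and 16615 genes reached 1 TPM in a library. Epithelial markers (Epcam, Cdh1 and keratins, 7 genes) summed to 1454 to 1923 TPM in the rmPRL libraries and 1849 to 2107 TPM in the saline libraries. The oviduct secretory markers (Ovgp1, Pax8, Muc1 and Wfdc2) summed to 5094 to 9282 TPM in the rmPRL libraries and 7476 to 10434 TPM in the saline libraries. Oviduct epithelium was thus present in every library, and these lists do not tell the infundibulum from other parts of the oviduct. The libraries differed in other cell types. Fibroblast markers (8 genes) summed to 968, 1496, 1335, 1293 and 2129 TPM in rmPRL libraries 1 to 5, against 1474, 1014, 601, 1050 and 1050 TPM in saline libraries 1 to 5. Markers of luteal and theca cells, which belong to the ovary (5 genes), summed to 418 TPM in rmPRL library 2 and 363 TPM in saline library 4, against at most 57.6 TPM in any other library. Whole-tissue RNA cannot tell fewer cells of a type from less RNA per cell, and this holds for all levels below.

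After 7 days of rmPRL, no integrin or laminin gene differed between the groups beyond the threshold of an adjusted p of 0.05. The lowest adjusted p among the 33 tested genes was 0.259, that of Itga3, in limma on log2(TPM + 1) with Benjamini-Hochberg adjustment over all 16131 tested genes. In the whole table that threshold was passed by 4 genes, or 0.0248% of those tested. At an unadjusted p under 0.05 in the same limma fit, 4 of the 33 genes were lower in the rmPRL group (Itga3, Itgb4, Itgb6 and Itga2b), which is 12.1% against a background of 9.91% of all tested genes. None of the 33 was higher at that level, where the background was 6.14% of all tested genes. In none of the 33 did all 5 rmPRL libraries lie to one side of all 5 saline libraries, where 1.49% of all tested genes lay wholly above and 1.57% wholly below. The share of lower genes was close to the background, and the 4 genes are described below as values and not as changes. Leaving out saline library 2, 3 or 5 left 0 of the 33 at an unadjusted limma p under 0.05. In these refits 1731, 2074 and 1995 of all 16131 tested genes were at that level.

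By direction alone, 18 of the 33 tested genes had a higher mean log2 level in the rmPRL group and 15 a lower one, so 54.5% were higher against 43.5% of all tested genes. The median log2 difference, rmPRL minus saline, was 0.05 over the 33 genes and -0.03 over all tested genes. The differences ran between -0.45 (Itgb6) and 0.33 (Itgam). Among proestrus libraries alone, which leaves out rmPRL library 2, 11 of the 33 were higher in the rmPRL group, against 42.5% of all tested genes. The count of higher genes thus moved with single libraries, and it was 14 of 33 without saline library 3. Among proestrus libraries alone, 2 of the 33 had an unadjusted limma p under 0.05, where 2021 of all 16131 tested genes did. These 2 were Itga2, which differed by -0.56 on the log2 scale (SE 0.23, limma adjusted p = 0.373), and Itgb5, which differed by -0.27 (SE 0.11, limma adjusted p = 0.366).

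**Figure D1:**
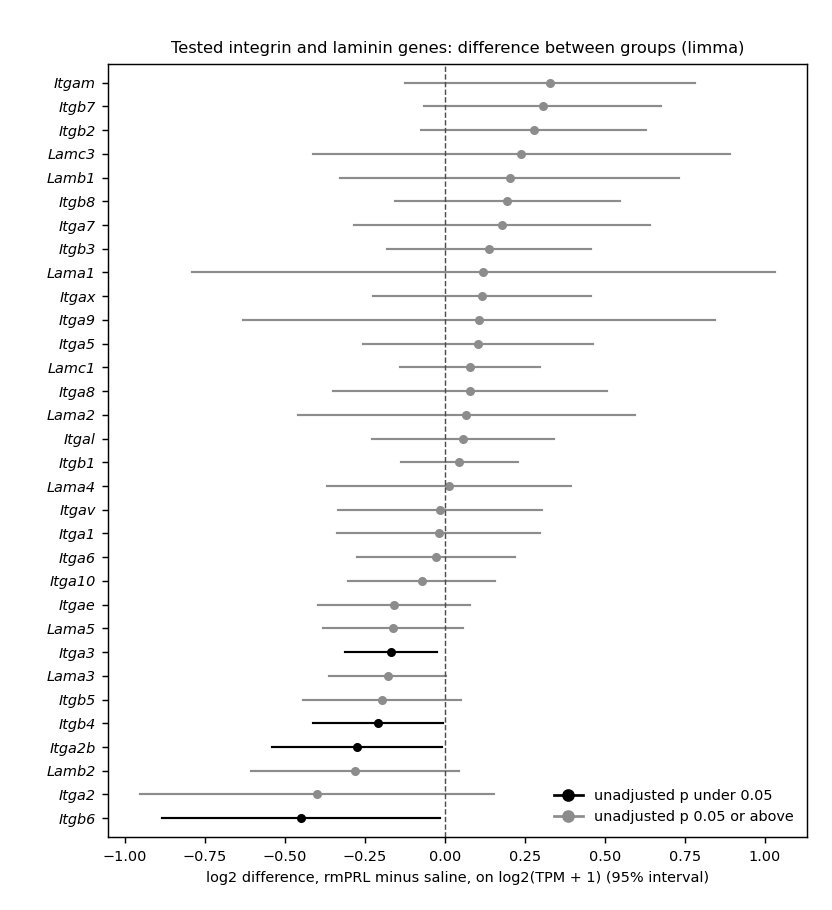
Log2 difference between rmPRL and saline libraries (rmPRL minus saline, on log2(TPM + 1)) for 32 of the 33 tested integrin and laminin genes. Points are the limma estimates over 5 libraries per group, lines their 95% intervals, and black marks an unadjusted p under 0.05. The intervals of all but 4 of them include 0, and that of Lama1 is the widest (-0.79 to 1.03).

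Laminin α chains give each laminin its receptor preference. Lama5, the main α chain of basement membranes under adult epithelia, led the class at 44.8, 42.5, 37.1, 53.4 and 38.7 TPM in rmPRL libraries 1 to 5, against 49.2, 51.4, 50.2, 40.6 and 50.4 TPM in saline libraries 1 to 5. The groups overlapped, with saline library 4 below 3 of the rmPRL libraries, and the log2 difference was -0.16 (SE 0.10, limma adjusted p = 0.421). Lama3, the α chain of the laminin that anchors stratified and glandular epithelia, had 26.4, 19.2, 26.6, 22.4 and 24.1 TPM in rmPRL libraries 1 to 5, against 27.0, 25.8, 26.1, 27.3 and 28.1 TPM in saline libraries 1 to 5. The saline values lay within a narrow band, and rmPRL libraries 2, 4 and 5 lay under it. Its log2 difference was -0.18 (SE 0.08, 95% interval -0.36 to 0.00, limma adjusted p = 0.318).

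The other α chains were lower. Lama2, the α chain of muscle and nerve basement membranes, averaged 17.1 ± 6.78 TPM in rmPRL libraries and 15.7 ± 3.38 TPM in saline libraries (SD, n = 5 each). Lama4, the α chain of blood vessel walls, stood at 9.96 to 18.9 TPM in rmPRL libraries and 10.5 to 19.0 TPM in saline libraries. Lama1, the chain of the early embryo that stays in a few adult tissues, was the lowest and the most uneven of the class. It had 1.5, 10.0, 1.76, 2.23 and 3.12 TPM in rmPRL libraries 1 to 5, against 3.02, 1.70, 1.69, 6.29 and 2.13 TPM in saline libraries 1 to 5. Its highest values were in rmPRL library 2 and saline library 4, the libraries with high luteal and theca cell markers. As shares of the summed α chain TPM, Lama5 made up 42.3% ± 6.70 in rmPRL libraries and 44.6% ± 4.70 in saline libraries, and Lama3 23.5% ± 4.93 in rmPRL libraries and 24.8% ± 1.54 in saline libraries (SD, n = 5 each).

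The β chains spanned the widest range of levels among the laminins. Lamb2 (GRCm38, chromosome 9, 108479736 to 108490530, plus strand), the β chain of vessels, muscle and many adult epithelia, had 133, 80.5, 107, 113 and 93.9 TPM in rmPRL libraries 1 to 5, against 101, 165, 116, 126 and 133 TPM in saline libraries 1 to 5. Lamb1, the β chain of most embryonic and many adult basement membranes, had 21.1, 49.3, 22.2, 22.3 and 32.6 TPM in rmPRL libraries 1 to 5, against 23.0, 21.0, 21.0, 37.1 and 21.6 TPM in saline libraries 1 to 5. Lamb3 (chromosome 1, 193207699 to 193343878, plus strand) stayed under 1 TPM in every library, at 0.134, 0.544, 0.998, 0.292 and 0.307 TPM in rmPRL libraries 1 to 5, against 0.275, 0.312, 0.243, 0.439 and 0.372 TPM in saline libraries 1 to 5. Lamb3 is among the β chains known to assemble with Lama3, and it is not the only such chain. RNA of Lama3 was 26.6 to 197 times that of Lamb3 in rmPRL libraries and 62.1 to 107 times in saline libraries. Lamb3 was not tested, and its groups overlapped. Lamb2 had a log2 difference of -0.28 (SE 0.15, 95% interval -0.61 to 0.04, limma adjusted p = 0.361) and Lamb1 one of 0.20 (SE 0.24, limma adjusted p = 0.687). The ratio of Lamb2 to Lamb1 was 1.63 in rmPRL library 2 and between 2.88 and 6.32 in the other rmPRL libraries, against 3.40 to 7.89 in saline libraries.

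Since these 3 genes of one family stood so far apart in level, the sequence before their transcription starts is shown for comparison. RefSeq promoters on GRCm38.p6 were at hand for 23 of the 37 genes. Each run below starts 250 bases before the RefSeq start, lies on the plus strand and ends before the first exon that GENCODE vM21 annotates in that window. Capitals mark CpG dinucleotides, the CG pairs that can be methylated in mammals. The runs are chr12:31265043-31265233 for Lamb1, chr9:108479612-108479735 for Lamb2 and chr1:193301744-193301992 for Lamb3, whose GENCODE model also has starts farther upstream.
Lamb1: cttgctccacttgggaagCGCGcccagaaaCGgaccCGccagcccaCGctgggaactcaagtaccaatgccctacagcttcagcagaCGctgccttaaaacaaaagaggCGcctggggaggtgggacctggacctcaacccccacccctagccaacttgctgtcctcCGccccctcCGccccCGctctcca
Lamb2: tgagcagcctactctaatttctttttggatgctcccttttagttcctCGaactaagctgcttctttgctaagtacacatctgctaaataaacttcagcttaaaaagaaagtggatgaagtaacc
Lamb3: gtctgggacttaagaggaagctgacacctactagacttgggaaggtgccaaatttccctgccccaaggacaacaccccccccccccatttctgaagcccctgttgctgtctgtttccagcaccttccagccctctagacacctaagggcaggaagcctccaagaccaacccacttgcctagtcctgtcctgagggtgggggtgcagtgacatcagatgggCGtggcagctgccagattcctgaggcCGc
Over the whole 250 bases, including the part not printed, Lamb1 held 14 CpG dinucleotides, Lamb2 3 and Lamb3 2, against a median of 6 over 32851 mouse promoters of the same length. A further RefSeq window for Lamb3, chr1:193301993-193302242, is not printed and held 3 CpG dinucleotides and a GC share of 61.2%. The other Lamb3 values here are those of the window printed. Lamb1 thus had the most CpG dinucleotides and a middle level of RNA, and Lamb2 the highest level with few. The GC share was 62.0% for Lamb1, 43.6% for Lamb2 and 58.8% for Lamb3, against a median of 52.4%. The GC box GGGCGG, read on both strands, matched at 2 places in Lamb1 and at 0 in the others, and 32.7% of all promoters held it. The TATA box TATAAA (12.4% of promoters) and the AP-1 motif TGANTCA (6.75% of promoters), each read on both strands, had no match in the 3 windows. A match describes letters and not a bound site.

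Lamc1, the γ chain of most laminins, had 36.4, 45.4, 41.5, 41.6 and 49.0 TPM in rmPRL libraries 1 to 5, against 47.9, 37.2, 33.9, 42.4 and 41.2 TPM in saline libraries 1 to 5. The groups overlapped and differed by 0.08 on the log2 scale (SE 0.10, limma adjusted p = 0.707). Lamc3, a minor γ chain, stood at 1.4 to 2.62 TPM in rmPRL libraries other than library 2, which had 7.30 TPM, and at 1.72 to 2.68 TPM in saline libraries.

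**Figure D2:**
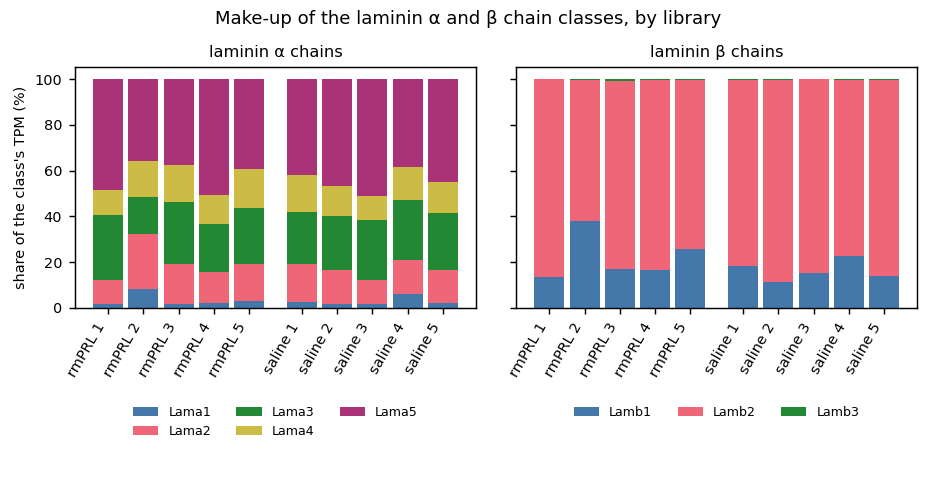
Share of each chain in the summed TPM of the laminin α or β chains (%, vertical axis) in each of the 5 rmPRL and 5 saline libraries (horizontal axis); each stacked bar is 1 library. Lama5 and Lamb2 make up the largest shares of their classes in every library, Lamb3 is at most 0.768% of the β chains, and rmPRL library 2 has the largest Lama1 and Lamb1 shares.

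The laminin-binding integrins are the receptors of these chains. Itga6 (chromosome 2, 71745616 to 71858416, plus strand), which pairs with Itgb1 or with Itgb4, was the most abundant α chain, at 110, 156, 154, 121 and 152 TPM in rmPRL libraries 1 to 5, against 123, 125, 154, 152 and 147 TPM in saline libraries 1 to 5. The groups overlapped, with 2 rmPRL libraries below and 1 above the saline values, and the log2 difference was -0.03 (SE 0.11, 95% interval -0.27 to 0.22, limma adjusted p = 0.918). Itga3 (chromosome 11, 95044474 to 95076801, minus strand), the epithelial receptor for laminins with Lama3 or Lama5, was the gene of the set with the lowest p. It had 58.4, 58.0, 63.9, 62.0 and 61.7 TPM in rmPRL libraries 1 to 5, against 61.9, 74.2, 71.4, 62.1 and 73.9 TPM in saline libraries 1 to 5. Its rmPRL values were close together, and saline libraries 1 and 4 lay among them. The log2 difference was -0.17 (SE 0.07, 95% interval -0.31 to -0.03), with an unadjusted limma p of 0.0246 and an adjusted p of 0.259. Among proestrus libraries alone it was -0.15 (SE 0.07, limma adjusted p = 0.405). Itga7, the laminin receptor of muscle, averaged 5.73 ± 0.91 TPM in rmPRL libraries and 5.18 ± 2.01 TPM in saline libraries (SD, n = 5 each).

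Itgb4 (chromosome 11, 115974709 to 116008412, plus strand), the β chain that joins Itga6 in hemidesmosomes, the rivets between epithelium and basement membrane, had 18.6, 13.8, 16.1, 16.9 and 16.7 TPM in rmPRL libraries 1 to 5, against 21.2, 19.8, 19.6, 15.7 and 19.5 TPM in saline libraries 1 to 5. Saline library 4 lay inside the rmPRL values, and the other 4 saline libraries lay above all of them. The log2 difference was -0.21 (SE 0.09, 95% interval -0.41 to -0.01), with an unadjusted limma p of 0.0431 and an adjusted p of 0.299. Among proestrus libraries alone it was -0.15 (SE 0.09, limma adjusted p = 0.477). Epithelial markers moved with this gene: 6 of their 7 genes were lower in the rmPRL group, with a median log2 difference of -0.19, and none passed the adjusted threshold. Their part in the Itgb4 and Itga3 values was not tested.

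Among collagen-binding α chains, all 3 that were tested had lower means in the rmPRL group. Itga10 had 4.00, 5.20, 5.13, 4.49 and 3.83 TPM in rmPRL libraries 1 to 5, against 4.93, 4.27, 5.12, 4.28 and 5.44 TPM in saline libraries 1 to 5. Itga1, the collagen receptor of smooth muscle and stromal cells, had 2.70, 4.54, 3.42, 3.22 and 3.51 TPM in rmPRL libraries 1 to 5, against 3.94, 3.42, 2.36, 4.26 and 3.79 TPM in saline libraries 1 to 5. Values overlapped throughout for these genes, with log2 differences of -0.07 for Itga10 and -0.02 for Itga1 (limma adjusted p = 0.744 and 0.956). Itga2, the collagen receptor of epithelia and platelets, had 0.715, 2.51, 1.34, 0.842 and 1.18 TPM in rmPRL libraries 1 to 5, against 1.16, 1.74, 1.65, 4.27 and 1.74 TPM in saline libraries 1 to 5. The highest value of each group was in a library with high luteal and theca cell markers, and the log2 difference was -0.40 (SE 0.25, 95% interval -0.95 to 0.15, limma adjusted p = 0.431). Without these libraries it was -0.35 (SE 0.14, limma adjusted p = 0.366). Itga11, a collagen receptor of fibroblasts, was not tested and reached 1 TPM only in rmPRL library 2, at 1.03 TPM.

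The RGD-binding α chains were led by Itgav, the common partner of Itgb3, Itgb5, Itgb6 and Itgb8. It had 49.7, 53.5, 64.0, 46.5 and 58.1 TPM in rmPRL libraries 1 to 5, against 42.5, 53.8, 46.0, 75.4 and 60.8 TPM in saline libraries 1 to 5. Itga5, which forms the fibronectin receptor with Itgb1, had 15.7, 21.3, 22.2, 19.2 and 26.5 TPM in rmPRL libraries 1 to 5, against 25.8, 16.2, 14.4, 22.1 and 19.4 TPM in saline libraries 1 to 5. Neither gene set the groups apart, with log2 differences of -0.01 for Itgav, which turned to 0.00 with TMM scaling, and 0.10 for Itga5 (limma adjusted p = 0.969 and 0.773). Itga8, which binds nephronectin, averaged 2.61 ± 0.98 TPM in rmPRL libraries and 2.38 ± 0.68 TPM in saline libraries (SD, n = 5 each).

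Itga2b (chromosome 11, 102453297 to 102470122, minus strand) is best known as the α chain of the platelet fibrinogen receptor. It stood at 19.8, 12.8, 13.4, 14.3 and 13.1 TPM in rmPRL libraries 1 to 5, against 17, 21.4, 17.4, 15.3 and 18.0 TPM in saline libraries 1 to 5. The rmPRL libraries 2 to 5 lay below every saline library, and rmPRL library 1 lay above all but one of them. The log2 difference was -0.27 (SE 0.12, 95% interval -0.54 to -0.01), with an unadjusted limma p of 0.0444 and an adjusted p of 0.301. Its level is set here beside 5 platelet and megakaryocyte markers. Ppbp, Gp9 and Gp6 were at most 0.187, 0.0683 and 0.0214 TPM in any library. Gp1bb averaged 0.529 TPM in rmPRL libraries and 0.980 TPM in saline libraries, with its highest values in rmPRL library 1 (1.64 TPM) and saline library 1 (3.89 TPM). Pf4 was at 9.34 to 18.8 TPM in rmPRL libraries and 4.75 to 11.9 TPM in saline libraries. The 5 genes summed to 9.59 to 19.3 TPM in rmPRL libraries and 5.04 to 16 TPM in saline libraries, most of it Pf4. Means of Gp1bb and Gp9 were lower in the rmPRL group, like that of Itga2b, and those of Pf4, Ppbp and Gp6 higher, and their part in the Itga2b values was not tested.

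Integrin β chains set the cytoplasmic link. Itgb1 (chromosome 8, 128685654 to 128733200, plus strand), which pairs with most laminin, collagen and fibronectin receptor chains, was the most abundant gene of the set. It had 143, 191, 170, 157 and 177 TPM in rmPRL libraries 1 to 5, against 172, 147, 150, 175 and 166 TPM in saline libraries 1 to 5. With overlapping groups, the log2 difference was 0.05 (SE 0.08, 95% interval -0.14 to 0.23, limma adjusted p = 0.805). Itgb1 made up 63.1% ± 2.49 of the summed β chain TPM in rmPRL libraries and 59.8% ± 3.28 in saline libraries (SD, n = 5 each).

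Itgb5, a vitronectin receptor chain, had 58.5, 66.6, 57.7, 49.0 and 45.5 TPM in rmPRL libraries 1 to 5, against 58.9, 77.3, 55.1, 62.3 and 64.3 TPM in saline libraries 1 to 5. Its lowest values were in rmPRL libraries 4 and 5, and the log2 difference was -0.20 (SE 0.11, 95% interval -0.45 to 0.05, limma adjusted p = 0.392). Itgb6 (chromosome 2, 60598292 to 60722643, minus strand), an epithelial chain that with Itgav activates latent TGF-β, had 5.58, 6.67, 10.9, 6.48 and 6.85 TPM in rmPRL libraries 1 to 5, against 6.29, 11.2, 10.3, 10.2 and 14.0 TPM in saline libraries 1 to 5. In each group 1 library went against the rest: rmPRL library 3 was high and saline library 1 was low. Itgb6 had the most negative difference of the set, with a log2 difference of -0.45 (SE 0.20, 95% interval -0.88 to -0.02), an unadjusted limma p of 0.0434 and an adjusted p of 0.299. Among proestrus libraries alone it was -0.43 (SE 0.22, limma adjusted p = 0.437). Itgb3, the vitronectin and fibrinogen receptor chain, stood at 6.95 to 13.6 TPM in rmPRL libraries and 7.31 to 8.94 TPM in saline libraries. Itgb8, which also activates latent TGF-β, stood at 3.13 to 4.54 TPM in rmPRL libraries and 2.21 to 4.94 TPM in saline libraries.

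**Figure D3:**
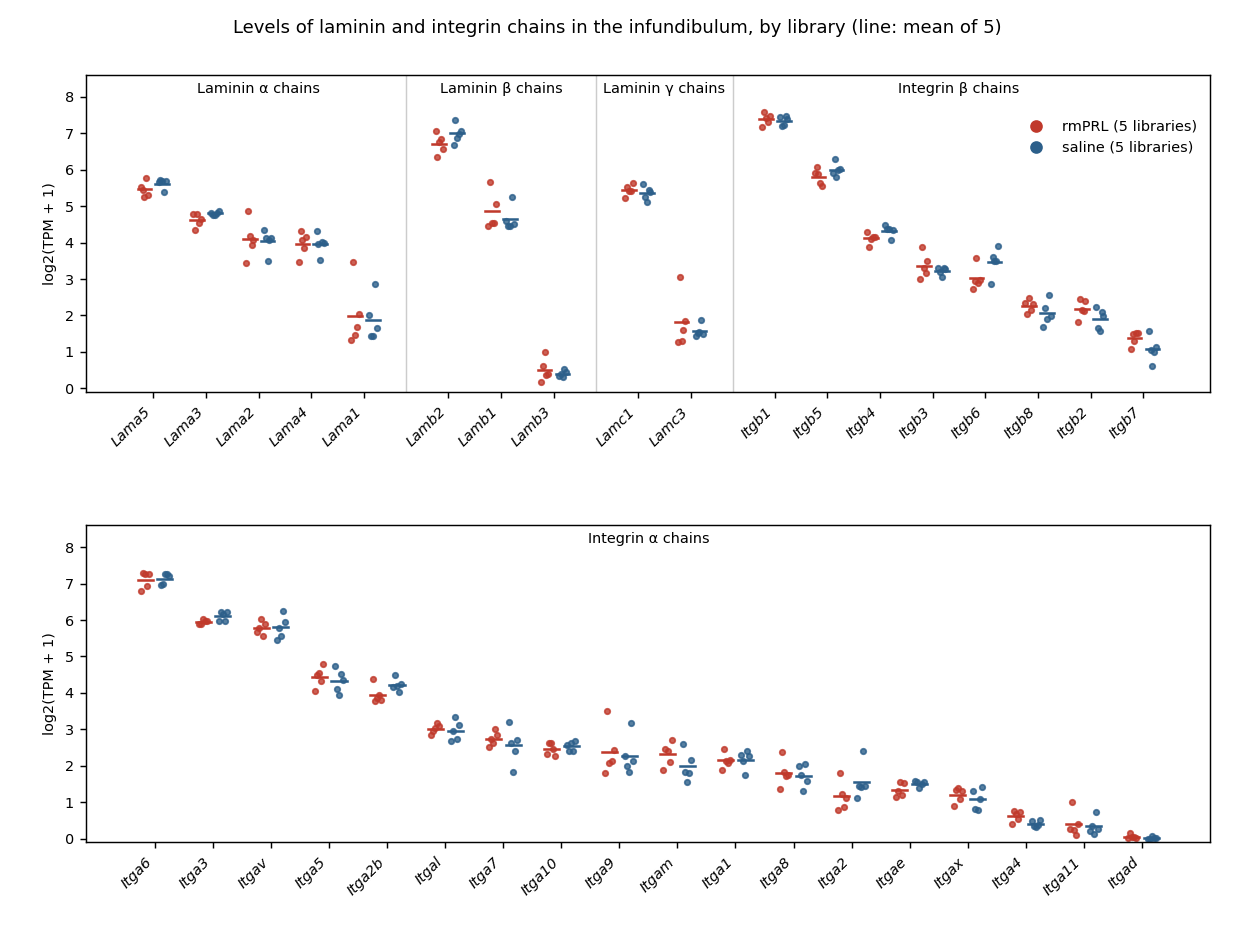
Levels of 36 laminin and integrin chains (log2(TPM + 1), vertical axis), with each of the 5 rmPRL and 5 saline libraries as a point and the group mean of the log2 values as a line. Itgb1, Itga6 and Lamb2 are the highest, Lamb3, Itga4, Itga11 and Itgad the lowest, and the points of the groups overlap for every gene that was tested.

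White blood cell integrins were among the lower genes of the set, each under 10 TPM in every library. Itgal, the α chain of the lymphocyte receptor for ICAM-1, was the highest of the 5 α chains of this kind. It had 6.18, 6.74, 7.23, 8.04 and 7.49 TPM in rmPRL libraries 1 to 5, against 5.39, 6.70, 9.14, 5.70 and 7.62 TPM in saline libraries 1 to 5. Itgb2, the chain with which Itgal, Itgam, Itgax and Itgad pair, had 2.52, 4.45, 3.47, 3.32 and 4.27 TPM in rmPRL libraries 1 to 5, against 3.69, 2.15, 2.00, 3.24 and 2.98 TPM in saline libraries 1 to 5. Itgal thus exceeded its known partner in every library, by 1.51 to 2.45 times in rmPRL libraries and 1.46 to 4.58 times in saline libraries. T and natural killer cell markers (7 genes) summed to 2.85 to 5.46 TPM in rmPRL libraries and 2.31 to 3.19 TPM in saline libraries.

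Itgam, the α chain of macrophages and neutrophils, had the most positive difference of the set. It had 2.70, 4.53, 4.33, 3.33 and 5.51 TPM in rmPRL libraries 1 to 5, against 5.04, 2.58, 1.96, 2.46 and 3.45 TPM in saline libraries 1 to 5. Saline library 1 lay near the top of the rmPRL values and the other saline libraries near the bottom, and the log2 difference was 0.33 (SE 0.21, 95% interval -0.13 to 0.78, limma adjusted p = 0.431). For Itgb2 the log2 difference was 0.28 (SE 0.16, 95% interval -0.07 to 0.63, limma adjusted p = 0.396). Itgb7, the partner of Itga4 and Itgae on lymphocytes, had 1.11, 1.80, 1.46, 1.86 and 1.88 TPM in rmPRL libraries 1 to 5, against 1.97, 1.09, 0.524, 0.988 and 1.21 TPM in saline libraries 1 to 5. Its highest value was in saline library 1, and the log2 difference was 0.31 (SE 0.17, 95% interval -0.07 to 0.68, limma adjusted p = 0.381).

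Macrophage and monocyte markers went the same way as these 3 chains. All 8 of them had higher means in the rmPRL group, with a median log2 difference of 0.36, and none passed the adjusted threshold. They summed to 179, 257, 207, 190 and 241 TPM in rmPRL libraries 1 to 5, against 240, 150, 133, 151 and 162 TPM in saline libraries 1 to 5, with saline library 1 again among the high libraries. This course was not particular to macrophage markers. All 8 fibroblast, all 7 blood endothelium and 7 of 8 smooth muscle markers were also higher in the rmPRL group, while 6 of 7 epithelial markers were lower. Saline library 1 had the highest saline sum of fibroblast (1474 TPM), blood endothelium (129 TPM) and smooth muscle markers (3019 TPM). The part of these cell types in the values of Itgam, Itgb2 and Itgb7 was not tested. Among the remaining chains of this kind, Itgax, a chain of dendritic cells and macrophages, stood at 0.861 to 1.63 TPM in rmPRL libraries and 0.744 to 1.68 TPM in saline libraries. Itgae, a chain of lymphocytes within epithelia, stood at 1.23 to 1.97 TPM in rmPRL libraries and 1.62 to 1.98 TPM in saline libraries. Itgad was at most 0.111 TPM in the rmPRL libraries and 0.0530 TPM in the saline libraries and was listed at 0 in saline libraries 1 and 2.

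Itga9 and Itga4 form a subfamily that binds VCAM-1, tenascin and other ligands. Itga9 had 2.46, 10.4, 3.22, 3.36 and 4.37 TPM in rmPRL libraries 1 to 5, against 3.86, 2.97, 2.55, 8.1 and 3.36 TPM in saline libraries 1 to 5. Itga4 had 0.336, 0.709, 0.599, 0.443 and 0.661 TPM in rmPRL libraries 1 to 5, against 0.395, 0.284, 0.240, 0.305 and 0.419 TPM in saline libraries 1 to 5. For Itga4, rmPRL library 1 lay among the saline values and the other rmPRL libraries lay above all of them. All its values were under 1 TPM, so Itga4 was not part of the main fit. Itga4 overlaps Cerkl on the opposite strand over 8.0% of its exonic bases, and Cerkl averaged 5.17 TPM in rmPRL libraries and 6.17 TPM in saline libraries.

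Across libraries, the spread within a group was larger for part of these genes than the difference between groups, and it followed a few libraries. Of the 33 tested genes, 11 (33.3%) had their highest value in rmPRL library 2, against 15.7% of all tested genes. Another pattern was at the low end, where 20 of the 33 (60.6%) had their lowest value in rmPRL library 1 or saline library 3. Among all tested genes the share was 21.6%. The lowest value was in rmPRL library 1 for 11 genes of the set and in saline library 3 for 9, the highest such counts. Both libraries were singled out from these same values, so the choice itself adds to the excess over the background and no test is given. These libraries also had the lowest fibroblast marker sums of their group, 968 TPM in rmPRL library 1 and 601 TPM in saline library 3. The same held for smooth muscle (1840 and 1131 TPM), blood endothelium (85.9 and 61.0 TPM), macrophage and monocyte (179 and 133 TPM) and dendritic cell markers (11.2 and 9.66 TPM). It did not hold in both groups for any other marker list. Epithelial markers were at 1923 TPM in rmPRL library 1, the highest of its group, and at 2043 TPM in saline library 3, where the saline range was 1849 to 2107 TPM. The part of these cell types was not tested.

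A smaller set was highest in the libraries with high luteal and theca cell markers. For 7 of the 33 tested genes (21.2%), and for Itga11, the highest values of all were those of rmPRL library 2 and saline library 4, against 5.12% of all tested genes. Itga9 had 10.4 TPM in rmPRL library 2 and 8.1 TPM in saline library 4, against 2.46 to 4.37 TPM in the other 8 libraries. Lama1 had 10.0 and 6.29 TPM in these, against 1.5 to 3.12 TPM in the other 8. Lamb1 had 49.3 and 37.1 TPM, against 21.0 to 32.6 TPM. The others were Itga1, Itga2, Itga8 and Lamc3. Without the 2 libraries, the log2 difference was 0.05 for Itga9 (SE 0.16), 0.00 for Lama1 (SE 0.19), 0.15 for Lamb1 (SE 0.13) and 0.00 for Lamc3 (SE 0.15), against 0.11, 0.12, 0.20 and 0.24 with all libraries. The choice of these genes used the values described, so no test is given, and the part of ovarian tissue in them was not tested. The stage of rmPRL library 2 (diestrus) cannot be told apart from that library, while saline library 4 was at proestrus.

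**Figure D4:**
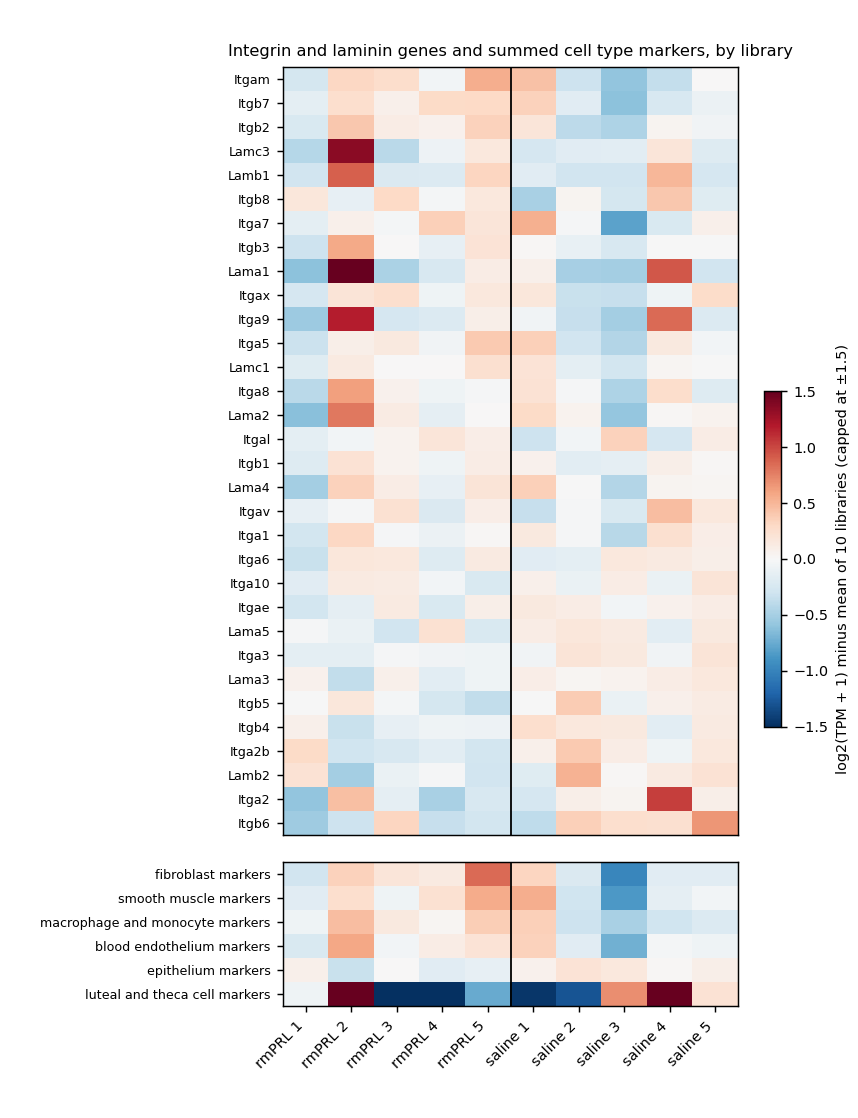
The levels of 32 tested integrin and laminin genes, and below them the summed markers of 6 cell types, in rmPRL libraries 1 to 5 (left of the line) and saline libraries 1 to 5 (right), coloured by log2(TPM + 1) minus the mean of the 10 libraries and capped at 1.5 in either direction. Genes are ordered by their difference between groups; rmPRL library 2 and saline library 4 stand out for Lama1, Itga9 and Lamb1 and for luteal and theca cell markers, and saline library 3 is low for fibroblast, smooth muscle and many integrin genes.

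Chains that join in 1 receptor or 1 laminin were compared across the 10 libraries on log2(TPM + 1). Of 14 listed pairs, 12 had both members tested, and p-values from 100000 permutations were adjusted over these 12. Itgam and Itgb2 varied together, with a Pearson r of 0.87 and a Spearman rho of 0.87 (permutation adjusted p = 0.0166 and 0.0272). So did Itga1 and Itgb1, with r = 0.82 and rho = 0.79 (permutation adjusted p = 0.0213 and 0.0374), and Itga5 and Itgb1, with r = 0.81 and rho = 0.81 (permutation adjusted p = 0.0213 and 0.0374). With each value taken relative to its group mean, r was 0.84, 0.84 and 0.81 for these pairs (permutation adjusted p = 0.0188, 0.0188 and 0.0233). Without the 2 libraries farthest from the median of the α chain, r was 0.77, 0.77 and 0.80 (permutation p = 0.0244, 0.0226 and 0.0198), and none passed adjustment over 8 libraries (0.0978 for each). Whether the lost calls come from those libraries or from the smaller number was not tested. Saline library 3 was one of them for all 3 pairs.

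The other 9 pairs did not pass. Itgal with Itgb2 had values without a common course (r = -0.28, rho = -0.20, permutation adjusted p = 0.516 and 0.584). Itga2b and Itgb3, partners in platelets, had r = -0.68 and rho = -0.73 (permutation adjusted p = 0.0528 and 0.0564), and its ratio to Itgb3 was 0.945 to 2.85 in rmPRL libraries and 1.75 to 2.65 in saline libraries. Itga6 and Itgb4 of hemidesmosomes had r = -0.49 and rho = -0.50 (permutation adjusted p = 0.226 and 0.232). Of the laminin pairs, Lama2 with Lamc1 had r = 0.71 and rho = 0.49 (permutation adjusted p = 0.0528 and 0.232). All genes of a pair were measured in the same libraries, so they share its mix of cells, whose part was not tested.

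**Figure D5:**
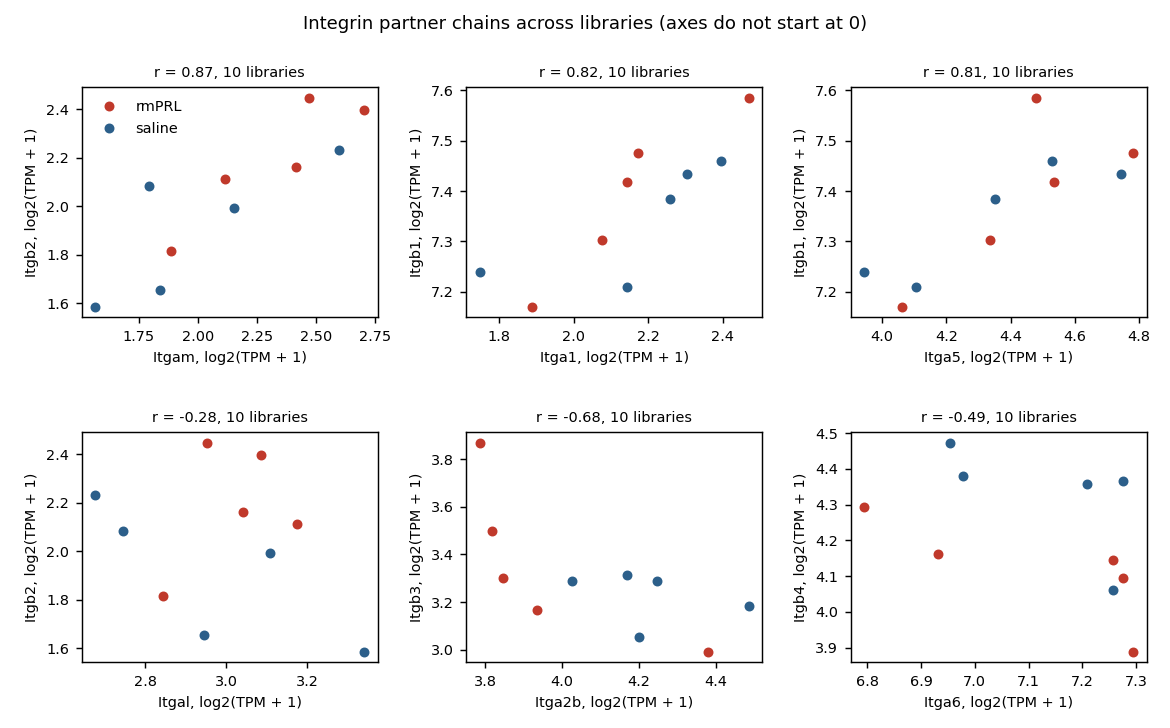
Levels of 6 pairs of integrin partner chains, α chain on the horizontal and β chain on the vertical axis (log2(TPM + 1), axes not starting at 0), with each rmPRL and saline library as a point. Itgam with Itgb2, Itga1 with Itgb1 and Itga5 with Itgb1 rise together over the 10 libraries (r of 0.81 to 0.87), while Itgal with Itgb2, Itga2b with Itgb3 and Itga6 with Itgb4 have r below 0.

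The genes around the receptors were read from 4 lists, with 80 tested genes in all, and none passed the adjusted threshold in limma. Of 30 genes of focal adhesions and integrin activation, the proteins that gather on the inner side of integrins, 16 were higher and 14 lower in the rmPRL group, with a median log2 difference of 0.04. At an unadjusted p under 0.05, 3 were higher and 2 lower, where 6.14% and 9.91% of all tested genes were. Crk, an adaptor that passes on focal adhesion signals, had 70.9, 78.6, 75.0, 80.1 and 81.4 TPM in rmPRL libraries 1 to 5, against 65.3, 58.5, 64.4, 68.4 and 67.4 TPM in saline libraries 1 to 5. All of its rmPRL libraries lay above all of its saline libraries, as for 1 of the 30 genes and 1.49% of all tested genes. Its log2 difference was 0.25 (SE 0.06), with an unadjusted limma p of 0.00119 and an adjusted p of 0.152. Kank1, which links talin to the cell cortex, averaged 38.8 ± 1.70 TPM in rmPRL libraries and 42.9 ± 1.47 TPM in saline libraries (SD, n = 5 each). Its difference was -0.14 on the log2 scale (SE 0.05, limma adjusted p = 0.224).

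Plectin and dystonin, which tie Itgb4 to keratin filaments in hemidesmosomes, were on the list of other laminin receptors and integrin partners. Plec had 67.1, 52.9, 70.6, 68.5 and 68.4 TPM in rmPRL libraries 1 to 5, against 77.0, 73.7, 72.5, 85.3 and 83.1 TPM in saline libraries 1 to 5. Each rmPRL library lay below each saline library, as for 1 of the 12 tested genes of the list and 1.57% of all tested genes. The log2 difference of Plec was -0.26 (SE 0.08), with an unadjusted limma p of 0.00955 and an adjusted p of 0.212. Dst averaged 209 ± 19.3 TPM in rmPRL libraries and 243 ± 25.3 TPM in saline libraries (SD, n = 5 each). Its difference was -0.21 on the log2 scale (SE 0.09, limma adjusted p = 0.277). In that list 3 of 12 tested genes were higher and 9 lower, with a median of -0.06, and 2 (Plec and Dst) were lower at an unadjusted p under 0.05, where 9.91% of all tested genes were. By direction alone, 43.5% of all tested genes were higher, the background for the counts by direction of these lists.

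Basement membrane partners of laminin, such as type IV collagens, nidogens and perlecan, had 14 of 20 genes higher and 6 lower in the rmPRL group, with a median log2 difference of 0.11. Col15a1, a collagen of muscle and vessel basement membranes, averaged 53.2 ± 19.9 TPM in rmPRL libraries and 30.9 ± 10.4 TPM in saline libraries (SD, n = 5 each). Its difference was 0.75 on the log2 scale (SE 0.28, limma adjusted p = 0.249). It was the only gene of the 20 with an unadjusted limma p under 0.05, where 6.14% of all tested genes were higher and 9.91% lower. Ntn4, a netrin that binds laminin γ chains, averaged 14.7 ± 3.87 TPM in rmPRL libraries and 19.3 ± 4.99 TPM in saline libraries (SD, n = 5 each). Its difference was -0.36 on the log2 scale (SE 0.21, limma adjusted p = 0.394).

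Of 23 integrin ligands other than laminin, 18 were tested, with 14 higher and 4 lower in the rmPRL group and a median log2 difference of 0.18. Mfge8, an RGD-bearing bridge to dying cells, averaged 102 ± 11.1 TPM in rmPRL libraries and 123 ± 11.9 TPM in saline libraries (SD, n = 5 each). Its difference was -0.26 on the log2 scale (SE 0.09, limma adjusted p = 0.220). This was the only unadjusted p under 0.05 among the 18, where 6.14% of all tested genes were higher and 9.91% lower. Emilin1, an elastic fibre protein, averaged 50.4 ± 13 TPM in rmPRL libraries and 38.0 ± 14.3 TPM in saline libraries (SD, n = 5 each). Its difference was 0.44 on the log2 scale (SE 0.25, limma adjusted p = 0.397). Beside these lists, all 8 fibroblast markers had higher means in the rmPRL group, with a median log2 difference of 0.52 and none past the adjusted threshold, and their part in the matrix genes was not tested.

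Annotated overlaps limit the reading of a few genes, since nothing used here states whether the counting used strand. Itgam shares 68.7% of its exonic bases with Gm49368 on the same strand, a gene with mean levels of 0.0459 TPM in rmPRL libraries and 0.0389 TPM in saline libraries, and reads of these genes may have been split or dropped. Itga10 shares 33.5% with Gm42957 on the same strand. On the opposite strand, B230344G16Rik covers 7.7% of the exonic bases of Itgb4.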

How the data were processed

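RNA came from infundibula frozen in liquid nitrogen, and libraries were made with a stranded mRNA kit, per the labels' protocols. Paired reads of 100 bases, 80 M per library, are stated in the series text. Per the submitters' processing notes, reads passed through Trimmomatic, HISAT2 (mm10) and featureCounts. No version or annotation is stated in what was used here. The values analysed are the TPM that the authors deposited, and their computation and scaling are not stated either. Read depth cannot be had from TPM, so count tests were left out.

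The fit took genes reaching 1 TPM in 5 or more libraries, as log2(TPM + 1), in R 4.3.3 with limma 3.58.1 (trend and robust estimation, group as the only term, two-sided, Benjamini-Hochberg over 16131 genes). This scale understates the change of low genes. Correlations used SciPy 1.17.1. The scripts were tested on simulated data. Statistics are given for the 12 tested genes with the lowest p by rule, and for 11 others chosen after their values were seen. Library values are given also for the 2 highest genes of each functional class. Of each list around the receptors, the 2 genes with the lowest p are named. Members and lists were chosen with earlier results of these data known. Coordinates are those of GENCODE vM21 on GRCm38 (mm10). Alternatives were 21 refits of the gene test, among them other pseudocounts (0.1 and 0.5), filters and scalings, array weights, a block by replicate number and leaving out each library. Counts cover all 37 genes, and 1 of them is not reported here by itself.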

Additional observations from a re-analysis of the deposited data

Results flagged for a closer look

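In 13 of 72 groups of 5 libraries, the highest or lowest library stood apart from the other 4 by a gap of more than 71% of the group's range. Chance alone flags about 1 in 20 groups, and the groups share their libraries. The rmPRL library 2 accounted for 4 of these and saline library 4 for 6, the libraries with the highest luteal and theca cell markers, whose part was not tested.

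Itga9, a receptor chain for tenascin, was at 10.4 TPM in rmPRL library 2 and 8.1 TPM in saline library 4. Lama1 was at 10.0 TPM in rmPRL library 2 and 6.29 TPM in saline library 4, and Lamc3 at 7.3 TPM in rmPRL library 2 and 2.68 TPM in saline library 4. Itga11, a collagen receptor chain that was not tested, was at 1.03 TPM in rmPRL library 2. Lamb1 was at 37.1 TPM and Itga2 at 4.27 TPM in saline library 4.

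Lama5, the main α chain under adult epithelia, was low in that saline library, at 40.6 TPM in saline library 4. Elsewhere, Itga2b was at 19.8 TPM in rmPRL library 1, Itgb6 at 10.9 TPM in rmPRL library 3, and Itgad at 0.053 TPM in saline library 3.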

How the results depend on the processing

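For the 12 genes with the lowest p, none of 248 refitted values over 21 alternatives changed sign or passed the adjusted threshold. The lowest limma adjusted p was 0.0678 (Itgb6, array weights). These 12 were chosen by their p in the same data, which in itself favours a stable sign. Of 11 other integrins and laminins given with a log2 difference, none passed, and 7 changed sign in 21 of 226 refitted values. Without one library, the log2 difference ran between -0.0033 and 0.0993 for Itgb1, -0.0733 and 0.0516 for Itga6, -0.1029 and 0.1002 for Itgav, -0.1262 and 0.0455 for Itga1, -0.1762 and 0.3319 for Itga9, -0.247 and 0.367 for Lama1, and -0.0715 and 0.3763 for Lamc3. For Itgav it was 0.0002 with TMM scaling, 0.0133 with quantile normalization, 0.008 after rescaling and 0.1036 without both libraries with high luteal markers. Of 168 refitted values of the 8 named genes around the receptors, none changed sign, and these too were chosen by their p. Counts moved more. Genes past the adjusted threshold, 4 of all tested, numbered 0 with no filter on low values in limma (where 3276 had an unadjusted p under 0.05), 270 under array weights, and between 1 and 18 without one library. Integrins and laminins with an unadjusted limma p under 0.05, 4 in all, numbered 2 with TMM scaling and 2 with quantile normalization. They numbered 1 after rescaling without mitochondrial and the 50 highest genes and 9 with array weights. With no filter on low values, 1 of 37 was higher (Itga4) and 2 were lower at that level, and the lowest limma adjusted p of the set was 0.471. Without one library they numbered between 0 and 6 (0 without saline library 2, 3 or 5). Of all 16131 tested genes, 2588 had such a p in the main fit, 2618 with TMM scaling and 2638 with quantile normalization. It was 2591 after rescaling, 4310 with array weights and between 1730 and 3693 without one library, so the background moved too. Genes of the set higher in rmPRL, 18 of 33, numbered 9 of 20 at a filter of 5 TPM, where 42.9% of all tested genes were higher. They numbered between 11 (without rmPRL library 2) and 21 without one library, where 42.5% to 45.6% of all tested genes were higher. Those with groups that did not overlap, 0 of 33, numbered between 0 and 1 without one library (Itga2b without rmPRL library 1, Itgb4 without saline library 4). Without both libraries with high luteal markers the number was 1 (Itgb4). Groups separate more easily with fewer libraries. The share over all tested genes is not given for these refits, so these counts cannot be set against a background. Of the genes around the receptors, 1 (Crk) passed with array weights. Of the partner pairs, 0 passed without the 2 farthest libraries, against 3. With the replicate number as a block, 2 genes of the whole table and 0 of the set passed. At an unadjusted limma p under 0.05 there were 2 of the set and 2214 of all tested genes. Deviations of same-numbered libraries correlated at -0.248 to 0.108, which gave no sign of pairing by number. Low correlations cannot show whether the libraries were handled in pairs, so this stays unknown. The cause of these moves was not tested. Depth is unknown, so values under 1 TPM carry a counting error that cannot be given.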
